A study of Mus musculus with 6 samples.

Results

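The matrix metalloproteinases (MMPs), the ADAMTS proteases, the ADAMTS-like proteins and the tissue inhibitors of metalloproteinases (TIMPs) were followed through the prefrontal cortex (PFC) transcriptome of P301S Tau mice. All gene symbols made of Mmp, Adamts, Adamtsl or Timp and a number were taken, which gave 51 of the 54429 genes in the count tables. The rule reads the symbols alone. They comprised 23 MMPs, of which 16 are secreted and 7 are held at the membrane, 19 ADAMTS proteases, 5 ADAMTS-like genes and 4 TIMPs.

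RNA from PFC tissue lysate was sequenced in 6 libraries, with 2 per group, all from mice aged 6 months. WT mice were of a (C57BL/6 x C3H) background and received vehicle (WT). PS19(P301S) mice, which carry a transgene for mutant human tau, received vehicle (Tau) or UNC0642, an inhibitor of the histone methyltransferases EHMT1 and EHMT2 (Tau+UNC0642). In the PS19 line the mouse prion protein (Prnp) promoter drives the transgene. The comparisons ask how the matrix proteases and their inhibitors differ with genotype, how they differ with the drug within the genotype, and whether treated Tau mice still differ from WT mice.

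MMPs are zinc-dependent endopeptidases that are made as inactive precursors and, once activated, cleave matrix proteins, receptors and adhesion molecules. ADAMTS proteases are secreted, and several of them cut the hyalectans (aggrecan, versican, brevican and neurocan), the proteoglycans that fill the brain's extracellular space and coat some neurons as perineuronal nets. TIMPs bind the active site of these enzymes and block it. ADAMTS-like proteins resemble ADAMTS proteases but lack the catalytic domain.

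The libraries held between 17005664 and 28972176 counts, so a floor of 3 counts lay at 0.107 to 0.178 CPM. Levels are given in CPM, the counts of a gene relative to the scaled total of its library. The library labelled WT replicate 1 stood apart. Its Prnp level of 1652 CPM fell within the 1470 to 1694 CPM of the 4 Tau and Tau+UNC0642 libraries, whereas WT replicate 2 was at 873 CPM. Mapt, the mouse tau gene, was at 575.6 CPM in WT replicate 1, within the 570.5 to 614.0 CPM of those 4 libraries, and at 448.7 CPM in WT replicate 2. Both genes thus placed WT replicate 1 with the P301S libraries, and whether its genotype label is right was not tested. This library also held genes of the olfactory bulb, such as Omp at 67.5 CPM against 0.172 to 1.24 CPM in the other libraries. The genes of the set lay there a median of 0.38 log2 units from their own means over the libraries, against 0.13 to 0.19 in the other libraries. Over all genes tested, the same measure was 0.14 there and 0.13 to 0.15 in the other libraries, so it set this library apart for the genes of the set only. The calls against WT are therefore given with and without this library, whose label was kept. Xist, expressed in females, was at 190.9 to 316.6 CPM in WT replicate 2 and both Tau libraries and at 0.118 to 0.197 CPM in WT replicate 1 and both Tau+UNC0642 libraries. UNC0642 treatment and this sex difference cannot be told apart in the comparison of Tau+UNC0642 with Tau mice. Once WT replicate 1 is left out, group and sex cannot be told apart between Tau+UNC0642 and WT mice either. A term for Xist expression, used in some fits below, rests on the difference between the WT libraries, the only group with both patterns. It therefore takes in whatever else sets WT replicate 1 apart. With this term, Tau against WT rests on WT replicate 2, and Tau+UNC0642 against WT on WT replicate 1. These estimates nearly repeat those without the other WT library. In the library labelled Tau replicate 2, the 8 markers of mature oligodendrocytes summed to 5423 CPM, against 1431 to 2914 CPM elsewhere, and the 6 markers of striatal projection neurons to 166.1 CPM, against 63.6 to 78.2 CPM. The 9 neuronal markers, looked at as a check of the tissue, summed to 7339 to 8112 CPM.

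Of the 51 genes, 36 had enough counts to be tested and 15 did not. The expressed set was dominated by membrane-type MMPs and TIMPs. By counts, Mmp17 made up 28.6% of the summed level, Timp2 18.7% and Mmp16 13.6%. Per length of transcript (RPKM, which is CPM per kilobase of exons, averaged over the 6 libraries), Timp2 was at 35.5, Mmp17 at 32.0, Mmp16 at 11.6, Mmp24 at 9.34, Timp3 at 6.67 and Timp4 at 4.47 RPKM. The most abundant ADAMTS genes were Adamts1 at 2.92, Adamts4 at 2.4 and Adamts3 at 2.29 RPKM. Every secreted MMP lay below 1 RPKM on this average.

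**Figure D1:**
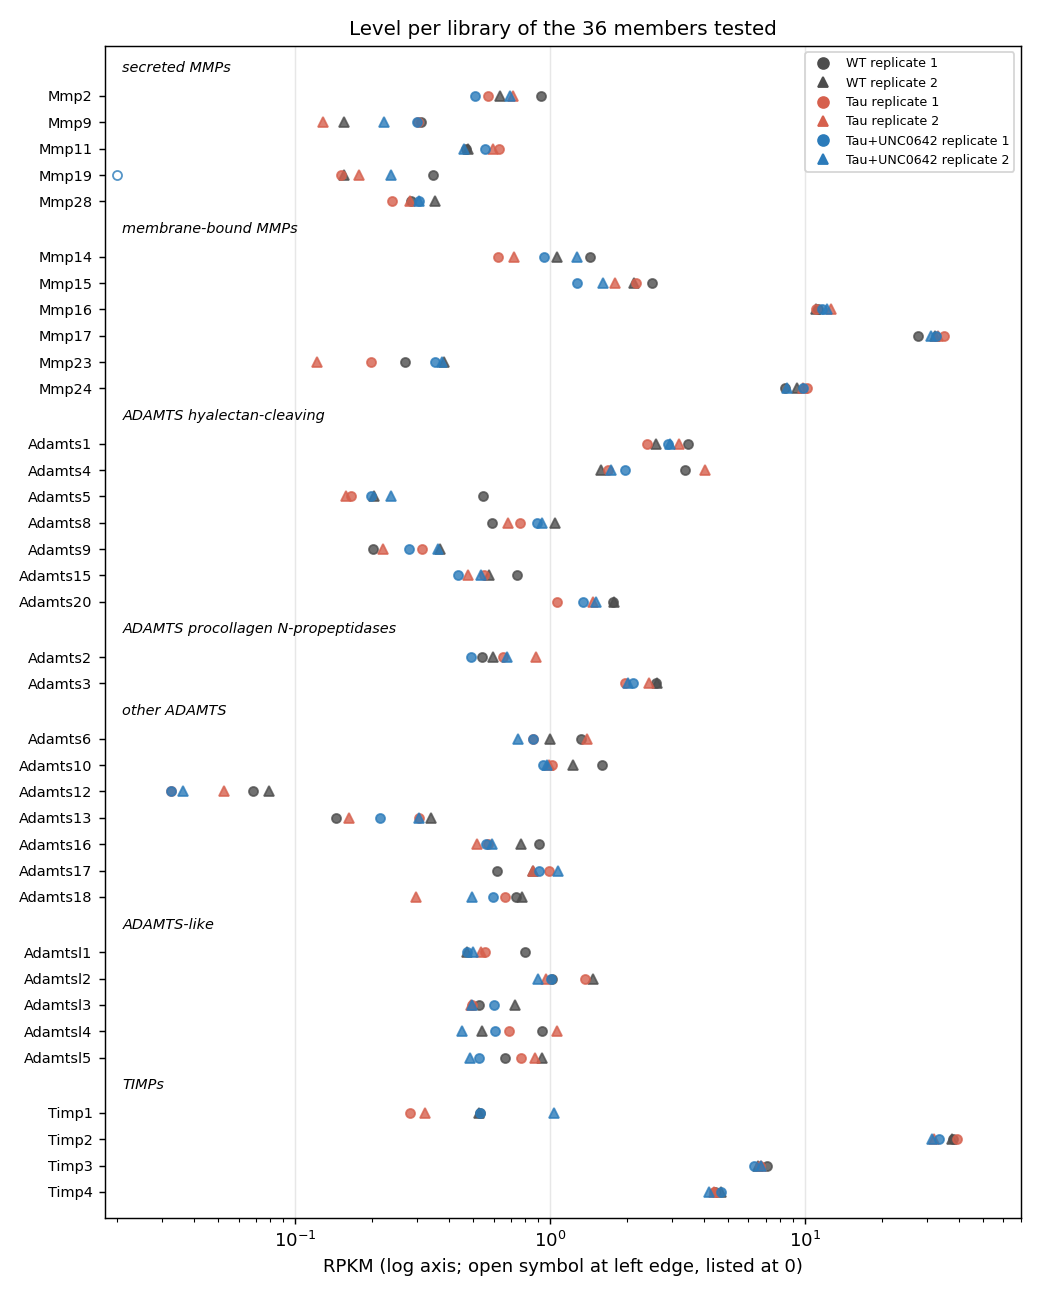
Level of each of the 36 tested genes in each library, in RPKM on a log axis, ordered by role. Colours stand for the groups and symbols for the replicates. Timp2, Mmp17 and Mmp16 lie furthest to the right, and for most genes the libraries of the 3 groups overlap.

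A cluster of 10 secreted MMP genes on chromosome 9 (from Mmp13 to Mmp7, chr9:7272514-7699585, 427 kb, GRCm38) was close to silent. Among these, the collagenases Mmp1a and Mmp1b, the stromelysins Mmp3 and Mmp10, and Mmp7, Mmp20 and Mmp27 had 0 counts in all 6 libraries, which allows a level of up to 0.107 to 0.178 CPM. The remaining genes of the cluster, the neutrophil collagenase Mmp8, the macrophage elastase Mmp12 and the collagenase Mmp13, had at most 4 counts in a library. Outside the cluster, Mmp21 (0 to 10 counts), Mmp25 (0 to 2), Adamts14 (2 to 14), Adamts7 (0 to 20) and Adamts19 (0 to 99) were also not tested. The summed level of all 51 genes was 751 and 753 CPM in the WT libraries, 760 and 749 CPM in the Tau libraries, and 718 and 707 CPM in the Tau+UNC0642 libraries.

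**Figure D2:**
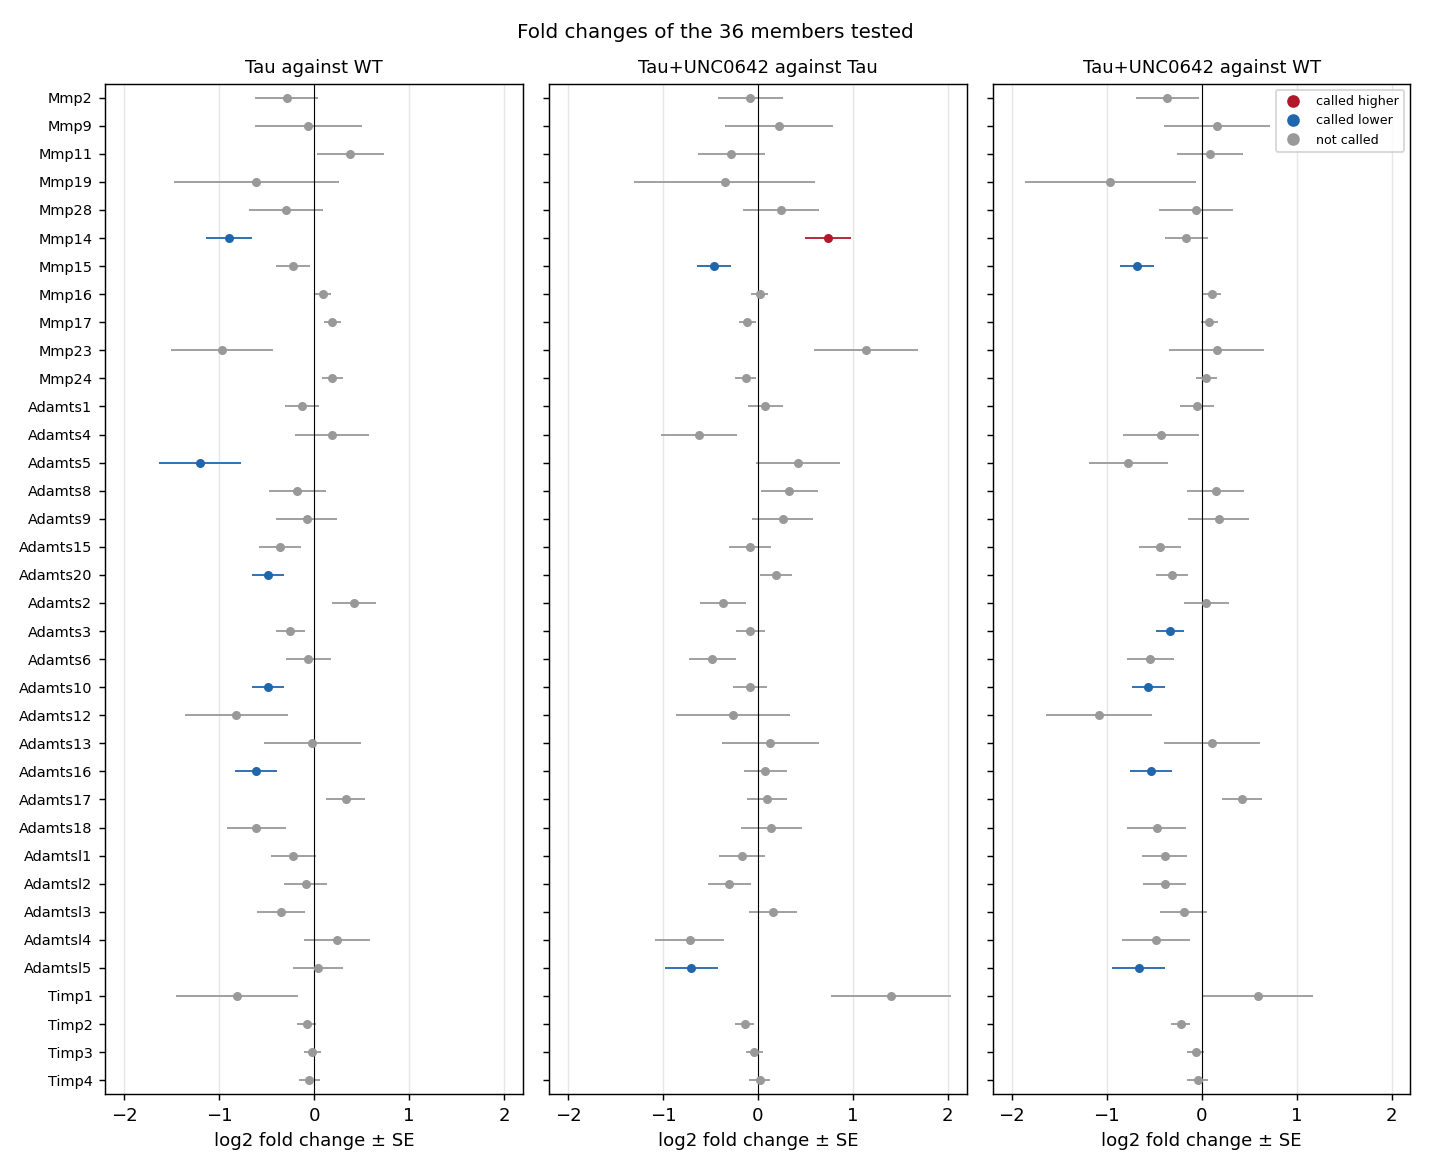
Log2 fold changes (points) with their standard errors (bars) for the 36 tested genes in each of the 3 comparisons, from edgeR's quasi-likelihood fit. Blue and red mark genes called lower and higher. The TIMPs other than Timp1 and the abundant membrane MMPs lie near 0, and all 5 calls of Tau against WT are below 0.

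A gene was called when its unadjusted p-value was under 0.05 and its fold change at least 1.2. Between Tau and WT mice, 5 of 36 genes (13.9%) were called, all lower in Tau mice: Mmp14, Adamts5, Adamts20, Adamts10 and Adamts16. Over all 20409 genes tested, 9.81% were called in this comparison, 3.72% as higher and 6.1% as lower. The median log2 fold change of the 36 genes was -0.16, against 0.00 over all genes, and 27 of 36 were below 0. Without the library labelled WT replicate 1, the calls numbered 2, Mmp14 and Adamts20.

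Between Tau+UNC0642 and Tau mice, 3 of 36 genes (8.33%) were called. Mmp14 rose, and Mmp15 and Adamtsl5 fell. The share over all genes was 7.69%, 3.73% as higher and 3.95% as lower, close to that of the 36 genes, whose median log2 fold change was -0.06.

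Between Tau+UNC0642 and WT mice, 5 of 36 genes (13.9%) were called, all lower in the treated mice: Mmp15, Adamts10, Adamts16, Adamtsl5 and Adamts3. The share over all genes was 9.47%, 3.77% as higher and 5.69% as lower, and the median log2 fold change of the 36 genes was -0.21. Without the library labelled WT replicate 1, 3 genes were called: Mmp15, Adamtsl5 and Adamtsl2. None of the 36 had an adjusted p-value under 0.05 in any comparison, by edgeR's quasi-likelihood test, by DESeq2 or by limma-voom. Over all genes, edgeR's adjusted p was under 0.05 in 32 genes (0.157%) between Tau and WT, in 4 (0.0196%) between Tau+UNC0642 and Tau, and in 44 (0.216%) between Tau+UNC0642 and WT. Unadjusted p-values under 0.05 were counted in 5, 3 and 6 of the 36 genes by edgeR, in 5, 1 and 2 by DESeq2 and in 5, 3 and 4 by limma-voom, in the order of the comparisons above. Any pair of these comparisons shares the libraries of a group.

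**Figure D3:**
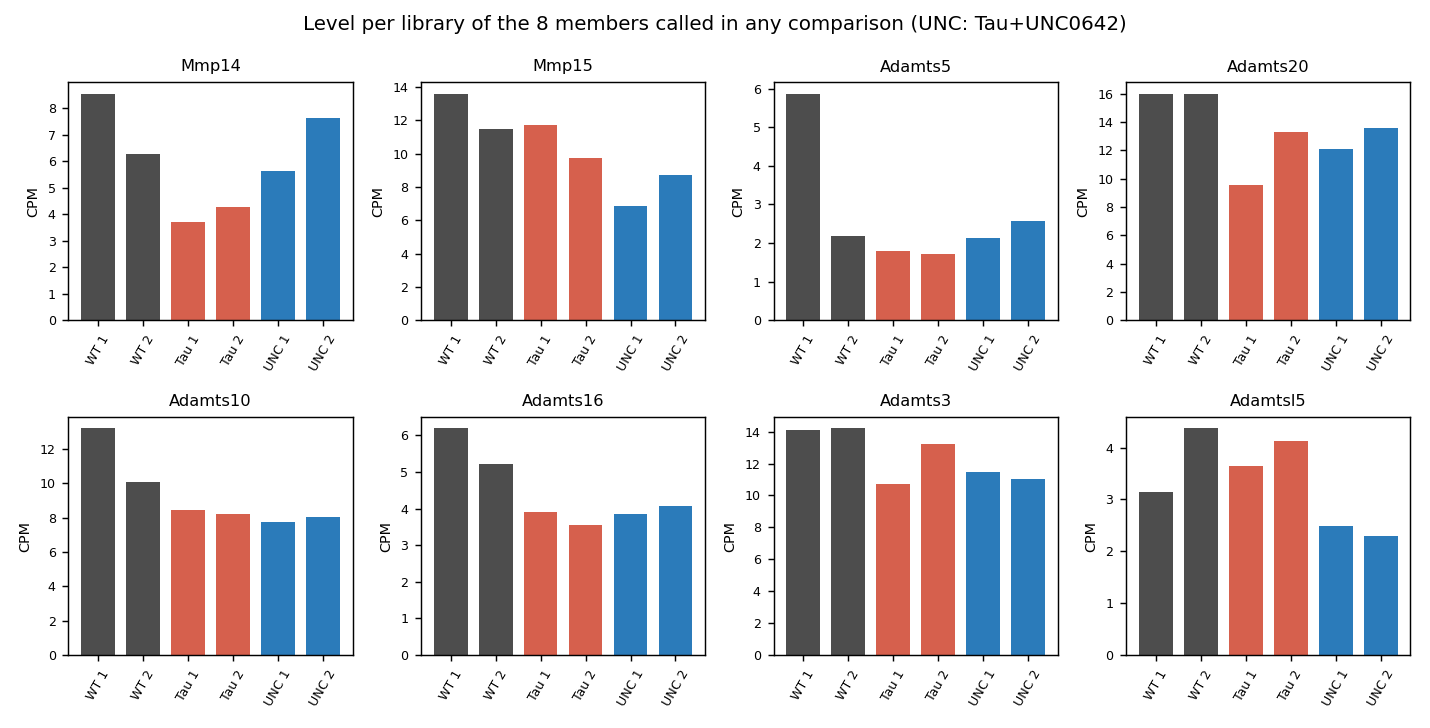
CPM of the 8 genes called in any comparison, a bar for each library. Both Tau bars of Mmp14 lie below its WT and Tau+UNC0642 bars, and for Adamts5 the bar of WT replicate 1 stands far above the others.

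Promoters are shown for the called genes that RefSeq's promoter table held, 5 of 8, since these genes passed the unadjusted call and EHMT1 and EHMT2 act on chromatin. Each sequence runs from 250 bases before the transcription start to 50 after it (RefSeq, GRCm38.p6), and capitals mark GC boxes, the letters GGGCGG on either strand. No other motif was searched.
Mmp14: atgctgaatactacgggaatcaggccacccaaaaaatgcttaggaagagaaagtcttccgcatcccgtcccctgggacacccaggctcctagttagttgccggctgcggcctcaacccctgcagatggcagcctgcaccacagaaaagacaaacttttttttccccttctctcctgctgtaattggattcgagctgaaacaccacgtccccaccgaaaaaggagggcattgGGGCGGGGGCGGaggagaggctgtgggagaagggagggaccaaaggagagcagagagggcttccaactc
Mmp15: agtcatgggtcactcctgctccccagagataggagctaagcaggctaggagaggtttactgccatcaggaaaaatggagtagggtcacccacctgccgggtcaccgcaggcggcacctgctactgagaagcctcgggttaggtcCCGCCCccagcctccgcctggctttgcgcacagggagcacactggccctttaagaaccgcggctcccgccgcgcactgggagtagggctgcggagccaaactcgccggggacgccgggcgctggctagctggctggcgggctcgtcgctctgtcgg
Adamts20: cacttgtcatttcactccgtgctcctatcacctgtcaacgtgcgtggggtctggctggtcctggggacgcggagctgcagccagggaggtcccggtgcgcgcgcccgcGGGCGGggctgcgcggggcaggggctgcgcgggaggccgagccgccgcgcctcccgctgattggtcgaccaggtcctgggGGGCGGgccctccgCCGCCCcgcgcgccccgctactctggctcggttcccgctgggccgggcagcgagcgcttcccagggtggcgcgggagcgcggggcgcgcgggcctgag
Adamts3: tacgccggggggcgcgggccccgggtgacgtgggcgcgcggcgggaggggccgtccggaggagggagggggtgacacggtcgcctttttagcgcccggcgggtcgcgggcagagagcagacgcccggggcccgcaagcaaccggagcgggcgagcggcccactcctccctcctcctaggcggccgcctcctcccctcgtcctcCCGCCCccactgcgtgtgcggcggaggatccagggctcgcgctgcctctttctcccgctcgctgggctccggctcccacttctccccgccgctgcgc
Adamtsl5: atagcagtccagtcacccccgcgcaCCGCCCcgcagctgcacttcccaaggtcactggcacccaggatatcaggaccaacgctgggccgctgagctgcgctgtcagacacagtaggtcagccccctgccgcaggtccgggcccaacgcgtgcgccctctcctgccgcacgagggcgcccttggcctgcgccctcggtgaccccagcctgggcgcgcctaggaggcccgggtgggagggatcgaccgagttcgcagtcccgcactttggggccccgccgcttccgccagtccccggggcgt
These windows lie at chr14:54431348-54431647 (plus strand) for Mmp14, chr8:95352046-95352345 (plus strand) for Mmp15, chr15:94404301-94404600 (minus strand) for Adamts20, chr5:89883285-89883584 (minus strand) for Adamts3 and chr10:80348399-80348698 (minus strand) for Adamtsl5. Each of the 5 held at least 1 GC box, as did 35.7% of the 32851 promoters in the table. The share among the uncalled genes of the set is not given here. The Mmp14 promoter had the lowest GC content of the 5, at 56.0%, with 10 CpG dinucleotides, and the Adamts20 and Adamts3 promoters the highest, at 77.3% with 41 CpG each. The Mmp15 promoter was at 66.0% and the Adamtsl5 promoter at 72.0%. The medians over the table were 52.7% and 7 CpG. Protein binding and histone marks at these promoters were not analysed here.

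Mmp14 encodes MT1-MMP, a membrane-anchored collagenase that also activates pro-MMP2 on the cell surface (chr14:54431612-54445364, plus strand). It was at 8.55 and 6.29 CPM in the WT libraries, 3.72 and 4.29 CPM in the Tau libraries, and 5.62 and 7.63 CPM in the Tau+UNC0642 libraries. Both Tau libraries lay below all 4 others, and the WT and Tau+UNC0642 ranges overlapped. The group means were 7.42 ± 1.6, 4.01 ± 0.41 and 6.63 ± 1.4 CPM (SD, n = 2). Mmp14 was thus 1.86-fold lower in Tau than in WT mice (log2 fold change -0.90 ± 0.24 SE, adjusted p = 0.239, edgeR). This call was made in all 16 alternative fits, and without the library labelled WT replicate 1 the log2 fold change was -0.66 and still called. After UNC0642, Mmp14 rose 1.67-fold (0.74 ± 0.24 SE on the log2 scale, adjusted p = 0.444, edgeR), a call made in 13 of 16 alternatives. It was lost without Tau+UNC0642 replicate 2 (log2 fold change 0.50), without Tau replicate 1 (0.63) and with a term for Xist expression (0.30). Against WT, treated mice differed by -0.16 ± 0.23 SE on the log2 scale, or by 0.08 without the library labelled WT replicate 1, and were not called in either fit.

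The summed level of 8 endothelial markers was also higher in WT than in Tau libraries, and it was uneven between the treated libraries. It was 230.1 and 217.8 CPM in WT, 164.1 and 170.6 CPM in Tau, and 163.2 and 215.7 CPM in Tau+UNC0642 libraries. Of these 8 markers, none of which was at 0, 5 were called lower in Tau mice (62.5%, against 6.1% of all genes). In the same order, 11 meningeal fibroblast markers summed to 335.1 and 534.3, 395.3 and 291.5, and 414.7 and 375.8 CPM. The 8 mural cell markers summed to 227.3 and 222.7, 205.4 and 210.6, and 190.5 and 181.1 CPM. In Tau mice 3 of 10 tested meningeal markers were called lower, and of the mural markers 2 lower and 1 higher. These calls are given with all 6 libraries only. The part of these marker lists in the Mmp14 result was not tested. In bulk tissue, fewer cells of a type and less RNA per cell cannot be told apart.

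Mmp15 encodes MT2-MMP, a close relative of Mmp14 with a transmembrane anchor (chr8:95352268-95375080, plus strand). Its level was 13.6 and 11.5 CPM in WT, 11.7 and 9.73 CPM in Tau, and 6.87 and 8.69 CPM in Tau+UNC0642 libraries. Both treated libraries were the lowest of the 6, and the WT and Tau ranges overlapped. Mmp15 fell 1.38-fold with UNC0642 (log2 fold change -0.46 ± 0.18 SE, adjusted p = 0.513, edgeR). That call was lost without Tau replicate 1 (-0.32), without Tau+UNC0642 replicate 1 (-0.31) and with the DESeq2 Wald test. Against WT mice it was 1.6-fold lower (-0.68 ± 0.18 SE, adjusted p = 0.192, edgeR), in all 16 alternatives, with log2 fold changes from -0.87 to -0.53 as single libraries were left out. Mmp14 and Mmp15 thus had opposite signs in the same comparison of treated with untreated Tau mice, though whether the pair differed was not tested.

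Mmp16, Mmp17 and Mmp24, the most abundant membrane MMPs, were not called in any comparison. Mmp17, which encodes the GPI-anchored MT4-MMP, was at 184 and 213 CPM in WT, 232 and 221 CPM in Tau, and 215 and 206 CPM in Tau+UNC0642 libraries. WT replicate 1 was the lowest and the Tau libraries were the highest, with a log2 fold change of Tau against WT of 0.19 ± 0.09 SE (adjusted p = 0.409, edgeR), which was 0.08 without that WT library. Mmp16 (MT3-MMP) lay between 95.6 and 109.6 CPM in all libraries, with log2 fold changes of 0.09, 0.02 and 0.11 in the 3 comparisons. Mmp24 (MT5-MMP), which is enriched in neurons and cleaves N-cadherin, lay between 39.2 and 48.0 CPM. Mmp23, an MMP with an unusual N-terminal membrane anchor, was low at 0.286 to 0.898 CPM. Its 2 Tau libraries were its lowest, but the differences of -0.97 ± 0.54 and 1.14 ± 0.55 SE on the log2 scale did not pass the test (adjusted p = 0.491 and 0.589).

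None of the 5 secreted MMPs tested was called in any comparison. The gelatinase Mmp2, the substrate of MT1-MMP, was at 3.11 and 2.15 CPM in WT, 1.93 and 2.4 CPM in Tau, and 1.72 and 2.34 CPM in Tau+UNC0642 libraries. The gelatinase Mmp9, known for its release by active neurons and by leukocytes, was at 1.1 and 0.547, 1.07 and 0.458, and 1.07 and 0.794 CPM in the same order. Within WT and within Tau, Mmp9 differed 2.02-fold and 2.34-fold between replicates, more than between any groups. Mmp11, Mmp19 and Mmp28 lay at 0 to 1.75 CPM.

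Among the 7 hyalectan-cleaving ADAMTS genes, Adamts5 and Adamts20 were called lower in Tau mice, and neither was called between treated and untreated Tau mice. Adamts5, the main aggrecanase of cartilage (chr16:85856173-85901828, minus strand), was at 5.87 and 2.19 CPM in WT, 1.79 and 1.72 CPM in Tau, and 2.13 and 2.56 CPM in Tau+UNC0642 libraries. Its WT value rested on the library labelled WT replicate 1, which lay far above every other library. The log2 fold change of Tau against WT was -1.20 ± 0.43 SE (adjusted p = 0.324, edgeR) with this library and -0.32 without it, where it was not called. It was also not called without Tau replicate 1 (-1.23) or Tau replicate 2 (-1.17). UNC0642-treated mice differed from Tau mice by 0.42 ± 0.44 SE on the log2 scale. With a term for Xist expression the sign turned, to -1.0, but that term takes in the gap between the WT libraries. Neither was called, so no direction is given for Adamts5 after treatment.

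Adamts20, known for its role in melanocyte development (chr15:94270163-94465418, minus strand), was at 16.0 CPM in each WT library, 9.55 and 13.3 CPM in the Tau libraries, and 12.1 and 13.6 CPM in the Tau+UNC0642 libraries. Both WT libraries lay above all 4 others, and Tau and treated ranges overlapped. It was 1.41-fold lower in Tau mice (log2 fold change -0.49 ± 0.17 SE, adjusted p = 0.315, edgeR). The call held in 15 of 16 alternatives, at -0.50 without the library labelled WT replicate 1, and was lost without Tau replicate 1 (-0.26). The RefSeq start used for the promoter above lies inside the gene as GENCODE M21 places it.

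Adamts1, which cleaves aggrecan and versican, was at 18.4 and 13.8 CPM in WT, 12.7 and 16.9 CPM in Tau, and 15.3 and 15.7 CPM in Tau+UNC0642 libraries, with all groups overlapping. Adamts9, a secreted versican-cleaving protease, was at 3.04 and 5.55, 4.72 and 3.32, and 4.2 and 5.47 CPM in that order, and the groups overlapped as well. Adamts8 and Adamts15 had log2 fold changes of -0.18 and -0.36 in Tau against WT, or -0.54 and -0.17 without the library labelled WT replicate 1, and were not called in any comparison.

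Adamts10 and Adamts16 were called lower than WT in both P301S groups. Adamts10, which binds fibrillin microfibrils (chr17:33524204-33553782, plus strand), was at 13.2 and 10.1 CPM in WT, 8.44 and 8.19 CPM in Tau, and 7.76 and 8.03 CPM in Tau+UNC0642 libraries. Both WT libraries were above all 4 P301S libraries, which lay close together. It was 1.4-fold lower in Tau (log2 fold change -0.49 ± 0.17 SE, adjusted p = 0.324, edgeR) and 1.48-fold lower in treated Tau mice (-0.56 ± 0.17 SE, adjusted p = 0.259). Without the library labelled WT replicate 1 neither call was made, at log2 fold changes of -0.29 and -0.36. The call in Tau mice was lost as well without Tau replicate 1 (-0.51) or Tau replicate 2 (-0.46).

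Adamts16 (chr13:70727802-70841811, minus strand), a protease studied mainly in the gonads and kidney, was at 6.19 and 5.23 CPM in WT, 3.9 and 3.55 CPM in Tau, and 3.85 and 4.06 CPM in Tau+UNC0642 libraries. Again both WT libraries lay above the other 4. Its log2 fold changes against WT were -0.61 ± 0.22 SE in Tau (adjusted p = 0.332, edgeR) and -0.53 ± 0.22 SE in treated mice (adjusted p = 0.382). Without the library labelled WT replicate 1 these were -0.49 and -0.40, and neither was called. The first was also lost without Tau replicate 2 (-0.55), and the second without Tau+UNC0642 replicate 1 (-0.49) or replicate 2 (-0.57). Between treated and untreated Tau mice the difference was 0.08 ± 0.23 SE. The other members of these ADAMTS groups were not called in any comparison: in Tau against WT, log2 fold changes were -0.82 for Adamts12, which was below 1 CPM throughout, -0.61 for Adamts18, -0.06 for Adamts6, -0.02 for Adamts13, 0.33 for Adamts17 and 0.42 for Adamts2. None of these 6 was called in this comparison without the library labelled WT replicate 1 either, with values of -0.91, -0.66, 0.15, -0.51, 0.11 and 0.34 in the same order.

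Adamts3, a procollagen N-propeptidase that also cleaves reelin (chr5:89677087-89883334, minus strand), was at 14.1 and 14.2 CPM in WT, 10.7 and 13.2 CPM in Tau, and 11.5 and 11 CPM in Tau+UNC0642 libraries. WT was above the other libraries throughout. The call in treated mice against WT was marginal (log2 fold change -0.33 ± 0.15 SE, adjusted p = 0.412, edgeR) and was made in 5 of 16 alternatives. It was lost when any WT or Tau+UNC0642 library was left out.

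Adamtsl5, which encodes a microfibril-binding ADAMTS-like protein (chr10:80339110-80348412, minus strand), was at 3.15 and 4.37 CPM in WT, 3.65 and 4.12 CPM in Tau, and 2.49 and 2.29 CPM in Tau+UNC0642 libraries. Both treated libraries were the lowest. With UNC0642 it fell 1.62-fold relative to Tau (log2 fold change -0.70 ± 0.28 SE, adjusted p = 0.516, edgeR) and was 1.58-fold lower than WT (-0.66 ± 0.28 SE, adjusted p = 0.381). The call against Tau was made in 10 of 16 alternatives and was lost without Tau replicate 2 (-0.61), Tau+UNC0642 replicate 1 (-0.76) or replicate 2 (-0.64). It was also lost with a term for Xist expression (-0.23) and with the DESeq2 Wald test. The call against WT was made in 9 and was lost without WT replicate 2 (-0.40), Tau+UNC0642 replicate 1 (-0.71) or replicate 2 (-0.60). It was also lost with the DESeq2 Wald test and with limma-voom. The loss with the term for Xist expression (-0.40) repeats that without WT replicate 2, since both rest on WT replicate 1. Against WT it was -0.88 and still called without the library labelled WT replicate 1. The other ADAMTS-like genes had log2 fold changes of -0.48 to -0.19 in treated mice against WT and were not called. Without that library their range was -0.64 to 0.03, and Adamtsl2, at -0.64, was called.

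**Figure D4:**
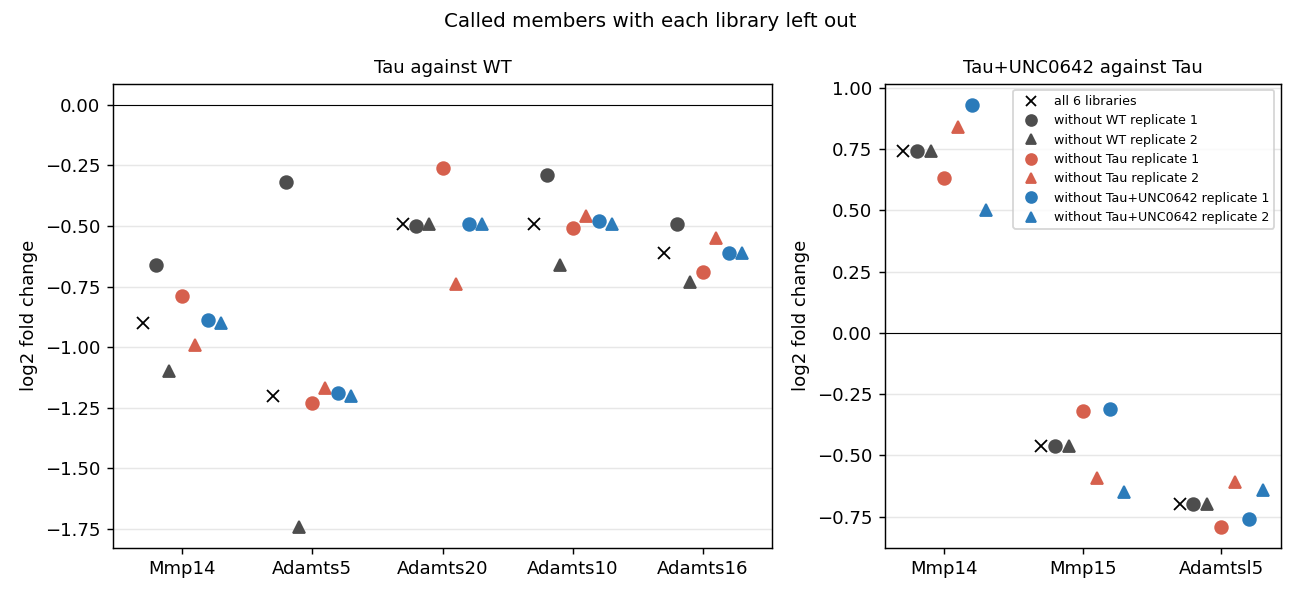
Log2 fold change of the called genes with all 6 libraries (crosses) and with each library left out (coloured symbols), for Tau against WT and Tau+UNC0642 against Tau. Adamts5 moves from -1.20 to -0.32 without the library labelled WT replicate 1, whereas Mmp14 stays between -1.10 and -0.66 in Tau against WT.

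Of the TIMPs, Timp2, Timp3 and Timp4 were abundant and not called in any comparison. Timp2, which both inhibits MMPs and helps MT1-MMP to activate pro-MMP2, was at 148.6 and 147.4 CPM in WT, 154.4 and 125.0 CPM in Tau, and 130.5 and 122.9 CPM in Tau+UNC0642 libraries. The treated libraries lay below both WT libraries, with a log2 fold change of -0.22 ± 0.10 SE (adjusted p = 0.406, edgeR) that stayed under the fold limit. Timp3, the matrix-bound inhibitor of ADAMTS proteases, was at 51.4 to 57.8 CPM in all 6 libraries, and Timp4 at 24.8 to 27.7 CPM. Their log2 fold changes lay between -0.06 and 0.02, with standard errors of 0.09 to 0.11.

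Timp1, the inducible inhibitor of the family (chrX:20870166-20874735, plus strand), was low and uneven. It had 12 and 12 counts in WT, 7 and 5 in Tau, and 8 and 21 in Tau+UNC0642 libraries, or 0.473 and 0.469, 0.25 and 0.286, and 0.474 and 0.926 CPM. Both Tau libraries were the lowest and Tau+UNC0642 replicate 2 was the highest. The differences of -0.81 ± 0.64 SE (Tau against WT, adjusted p = 0.64) and 1.40 ± 0.63 SE (treated against Tau, adjusted p = 0.564) did not pass edgeR's test. Timp1, Timp3 and Timp4 lie inside the synapsin genes Syn1, Syn3 and Syn2 on the opposite strand. Exons of Timp3 share 1733 bases (21.3% of their length) with those of Syn3, and Timp4 shares 90 bases (1.5%) with Syn2. The strand setting of the counting was not given in the sources used here, so reads over these bases cannot be assigned with certainty. The same holds for Mmp24, which shares 13.6% of its exon length with BC029722, and Mmp19, which shares 22.3% with Tmem198b, both on opposite strands. Of the synapsins, Syn1 (-0.42 ± 0.18 SE, adjusted p = 0.548) and Syn3 (-0.38 ± 0.15 SE, adjusted p = 0.523) were called lower in treated than in untreated Tau mice, but not without Tau replicate 1 (-0.18 and -0.20), without Tau+UNC0642 replicate 2 (-0.20 and -0.37) or with the Xist term (-0.05 and -0.42). The call of Syn3 was also lost without Tau+UNC0642 replicate 1 (-0.38).

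Adamts4, Adamts6 and Adamtsl4 had the same 2 libraries highest. Adamts1 and Mmp2, whose values are given above, also had these 2 libraries highest, by smaller margins. Adamts4, an aggrecanase and brevican-cleaving protease that is expressed by oligodendrocytes in the adult brain, was at 16.2 and 7.66 CPM in WT, 8.12 and 19.5 CPM in Tau, and 9.41 and 8.34 CPM in Tau+UNC0642 libraries. Adamts6 was at 10.3 and 7.81, 6.69 and 10.9, and 6.69 and 5.82 CPM in the same order. Adamtsl4 followed at 3.9 and 2.27, 2.9 and 4.47, and 2.55 and 1.9 CPM. The library labelled WT replicate 1 and Tau replicate 2 were above the others for each of the 3 genes, as they were for the 8 mature oligodendrocyte markers, which summed to 2914 and 5423 CPM there and to 1431 to 2225 CPM elsewhere. None of the 8 markers was at 0, and their part in these values was not tested.

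No group difference of Adamts4 could be separated from this spread. The log2 fold change of Tau against WT was 0.19 ± 0.39 SE, but 0.82 without the library labelled WT replicate 1 and -0.55 without Tau replicate 2. Treated against untreated Tau mice it was -0.62 ± 0.40 SE, and was not called. It was 0.12 without Tau replicate 2, but -1.14 without Tau replicate 1. With a term for Xist expression, which takes in the gap between the WT libraries, it was -1.69 and called.

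Adamts19 was present almost only in the library labelled WT replicate 1, with 99 counts there against 0 in WT replicate 2, 2 and 0 in Tau, and 6 and 0 in Tau+UNC0642 libraries. That library held 26 genes at 2 CPM or more that were at least 8-fold above every other library, and Adamts19 was the gene of the set among them. The others included Omp, Th, Cdhr1, S100a5 and Eomes, which mark the olfactory bulb and were chosen after their values were seen.

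**Figure D5:**
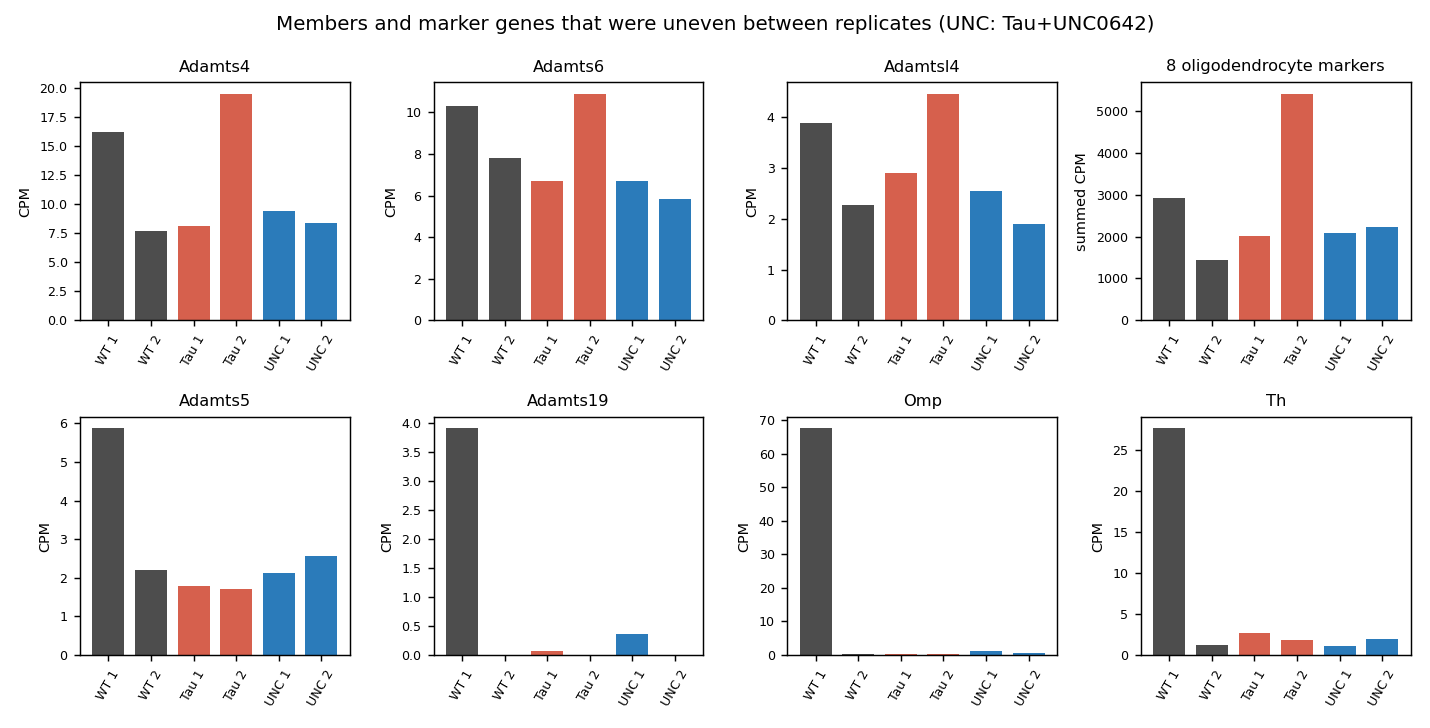
CPM per library of genes that were uneven between replicates, beside the summed CPM of 8 mature oligodendrocyte markers and the olfactory bulb genes Omp and Th. Adamts4, Adamts6 and Adamtsl4 are highest in WT replicate 1 and Tau replicate 2, and Adamts5, Adamts19, Omp and Th in WT replicate 1.

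Genes around these proteases were read from lists that were chosen with earlier results of these data known. Their shares beside that of all genes are therefore no test of enrichment. Of 20 tested activators and inhibitors of matrix proteolysis, 2 were called higher and 2 lower in Tau than in WT mice, which is 20.0% of the list against 9.81% of all genes. When the library labelled WT replicate 1 was left out, the list had 1 call each way (2 of 20), against 9.03% of all genes. Between treated and untreated Tau mice, 2 were called higher and 3 lower, or 25.0% against 7.69%. With the Xist term 0 were called higher and 3 lower, or 15.0% against 8.05%. Without Tau+UNC0642 replicate 2 the share was no higher than that of all genes. Reck, a membrane-anchored inhibitor of MT1-MMP, MMP2 and MMP9, was at 7.61 and 7.15 CPM in WT, 5.08 and 4.41 CPM in Tau, and 6.57 and 7.23 CPM in Tau+UNC0642 libraries. Both Tau libraries of Reck were below all others, with log2 fold changes of -0.63 ± 0.19 SE (adjusted p = 0.273) and 0.54 ± 0.19 SE (adjusted p = 0.479, edgeR). The first was -0.59 and still called without the library labelled WT replicate 1, and the second was lost without Tau replicate 2 (0.44), without Tau+UNC0642 replicate 2 (0.46) and with the Xist term (0.45).

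Plat, the tissue plasminogen activator, was called higher with UNC0642 (0.52 ± 0.13 SE on the log2 scale, adjusted p = 0.348, edgeR), also as each library was left out, but not with the Xist term (0.30). Thbs2, which encodes a matricellular protein that clears MMP2, was at 25.3 and 16.1 CPM in WT, 11.9 and 15.2 CPM in Tau, and 14.8 and 13.8 CPM in Tau+UNC0642 libraries. WT replicate 1 stood far above the others, and WT replicate 2 lay close to Tau replicate 2. The log2 fold change of Thbs2 in Tau against WT was -0.62 ± 0.21 SE (adjusted p = 0.306, edgeR), a call that was lost without the library labelled WT replicate 1 (-0.26) or Tau replicate 1 (-0.44).

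Among 20 tested substrates, 2 were called higher and 5 lower in Tau mice, or 35.0% against 9.81% of all genes. This count rested on single libraries. Without Tau replicate 2, which held the most oligodendrocyte and striatal marker RNA, 1 of 21 was called (4.76% against 8.53%), and without the library labelled WT replicate 1, 5 of 21 were (23.8% against 9.03%). After UNC0642, 3 were called higher and 2 lower, or 25.0% against 7.69%. With the Xist term the share was 25.0% against 8.05%. It was smaller without Tau replicate 2, and without Tau+UNC0642 replicate 2 it was no higher than that of all genes. Fibronectin (Fn1) was at 38.7 and 44.6 CPM in WT, 35.7 and 20.9 CPM in Tau, and 47.4 and 46.4 CPM in Tau+UNC0642 libraries. Its log2 fold changes were -0.55 ± 0.20 SE (adjusted p = 0.325) and 0.72 ± 0.20 SE (adjusted p = 0.395, edgeR). Without Tau replicate 2 they were -0.22, which was not called, and 0.39, which was. The call against WT was also lost without WT replicate 2 (-0.43).

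Of the hyalectans, brevican (Bcan), which Adamts4 and Adamts5 cut, was called lower in Tau mice (-0.29 ± 0.08 SE on the log2 scale, adjusted p = 0.265, edgeR), though not without Tau replicate 2 (-0.22), and differed by 0.02 ± 0.08 SE after treatment. Versican (Vcan), named here after its values were seen, was at 27.1 and 27.0 CPM in WT, 31.4 and 38.5 CPM in Tau, and 27.6 and 27.3 CPM in Tau+UNC0642 libraries. Both Tau libraries lay above the other 4. Its log2 fold changes were 0.37 ± 0.12 SE in Tau against WT (adjusted p = 0.299) and -0.34 ± 0.12 SE after UNC0642 (adjusted p = 0.467, edgeR). Without Tau replicate 2 these were 0.22 and -0.20, and neither was called. The second call was also lost without Tau+UNC0642 replicate 1 (-0.35), without Tau+UNC0642 replicate 2 (-0.34) and with the Xist term (-0.35). Col4a1, a basement membrane collagen, was called higher with UNC0642 (0.37 ± 0.11 SE, adjusted p = 0.418), but not without Tau replicate 2 (0.29), Tau+UNC0642 replicate 2 (0.28) or with the Xist term (0.28).

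Among 17 tested related metalloproteases, 1 was called higher and 2 lower in Tau mice (17.6% against 9.81% of all genes), with the same numbers without the library labelled WT replicate 1. After UNC0642, 1 was called each way (11.8% against 7.69%). With the Xist term the share was 5.88% against 8.05%. Without Tau replicate 2 or Tau+UNC0642 replicate 2 it was no higher than that of all genes. It was larger without Tau replicate 1 or Tau+UNC0642 replicate 1. Bmp1, which trims procollagens, was called lower in Tau mice (-0.57 ± 0.16 SE on the log2 scale, adjusted p = 0.255, edgeR), with values of -0.85 to -0.35 as each library was left out, all called. Ece1, the endothelin-converting enzyme, was called higher in Tau mice (0.28 ± 0.09 SE, adjusted p = 0.302), but not without WT replicate 2 (0.25). Mme, or neprilysin, was called lower with UNC0642 (-0.68 ± 0.23 SE, adjusted p = 0.461), but not without Tau replicate 2 (-0.30), without Tau+UNC0642 replicate 2 (-0.54) or with the Xist term (-0.45). All of these calls rest on unadjusted p-values, and the lowest adjusted p-value of the lists in these 2 comparisons was 0.255.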

How the data were processed

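RNA-seq of PFC was analysed in 6 libraries, 2 per group, grouped by their labels. Strand-specific libraries were made after ribosomal RNA depletion. The authors trimmed reads with Cutadapt, aligned them with TopHat2 and deposited featureCounts counts per gene without normalization. Their processing notes name the build mm10, and the extraction text names RefSeq mRNAs as the target. Versions, strand and multi-mapping settings of the counting are not given in the sources used here.

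From these counts, 20409 genes were kept by filterByExpr (minimum count 10, minimum total 15). With edgeR 4.0.16 in R 4.3.3, libraries were scaled by TMM (factors 0.966 to 1.04), and the quasi-likelihood model took group as its only term, over the 6 libraries together (3 residual degrees of freedom, biological coefficient of variation 12.3%). The call was an unadjusted p under 0.05 together with a 1.2-fold difference or more (0.26 on the log2 scale), and p-values were adjusted by Benjamini-Hochberg over all genes. Library totals were 24525020 and 25264641 (WT), 28972176 and 17690811 (Tau), and 17005664 and 22657673 (Tau+UNC0642). CPM used the TMM-scaled totals, and RPKM the exon length in GENCODE M21 (GRCm38), in which all 51 genes were matched by symbol. Among genes with 1 to 10 counts, 65.2 to 68.3% had an even count, so counting limits treat counts as more independent than they are and cover counting error only.

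Replicates are different mice, and p-values measure the spread between these libraries. The members, roles and gene lists were chosen with earlier results of these data known. Values in every library are given for the TIMPs, for Mmp2, Mmp9, Mmp14, Mmp15, Mmp16, Mmp17, Mmp24, Adamts1, Adamts4, Adamts5 and Adamts9 (in ranges where even), and for every gene called; of the lists, for at most 3 called genes with the smallest p. Adamts6, Adamtsl4, Adamts19 and Vcan were singled out after their values were seen. Alternatives were DESeq2 1.42.0 (size factors and Wald test), library size alone, other filters, limma-voom (limma 3.58.1), a replicate block, fits restricted to the compared groups, a term for Xist expression, other thresholds and leaving out each library; dropping WT replicate 1 together with Tau replicate 2, and the fits of the list genes without single libraries or with the Xist term, were added after seeing the data. Dates stood in place of 26 gene names, none of a member, in the second replicates of WT and Tau; these rows were joined by position. The fit was tested on simulated data. Tables and figures used Python 3.11.15, pandas 2.3.3 and matplotlib 3.10.9.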

Additional observations from a re-analysis of the deposited data

How the results depend on the processing

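In Tau against WT, 5 of 36 genes were called, against 9.81% of all genes. With a term for Xist expression 2 of 36 were, against 9.21%. The count was 3 at a fold change of at least 1.5 and 0 by adjusted p. It fell without WT replicate 1, left out alone or together with Tau replicate 2, and rose without WT replicate 2. In Tau+UNC0642 against Tau, 3 of 36 were called, against 7.69% of all genes. With the Xist term 6 of 36 were, against 8.05%. The count was 7 without a filter, 1 by the DESeq2 Wald test and 0 by adjusted p. It moved both ways as single libraries were left out, and rose without either Tau library. It also rose with WT replicate 1 and Tau replicate 2 both left out. In Tau+UNC0642 against WT, 5 of 36 were called, against 9.47% of all genes. With the Xist term 8 of 36 were, against 10.1%. The count was 11 without a filter, 2 by the DESeq2 Wald test, 3 by limma-voom, 2 at a fold change of at least 1.5 and 0 by adjusted p. For the other settings the share over all genes is not given here. Leaving out single libraries gave 3 (without WT replicate 1 or Tau+UNC0642 replicate 2) to 11 (without WT replicate 2), with 8 without Tau replicate 1 and 9 without Tau replicate 2. The count filter was run anew in each fit that left out a library, so these counts are not all out of 36. Without WT replicate 2, 40 genes of the set were tested. The calls of Tau against WT then included Adamts19, which had 99 counts in WT replicate 1 and at most 6 elsewhere. Without Tau+UNC0642 replicate 2, the calls against WT included Mmp19 at a log2 fold change of -7.33. Its count in Tau+UNC0642 replicate 1 was 0. The cause of the shifts was not tested further. By construction, the Xist term rests on the difference between the WT libraries, the only group with both patterns.

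With a replicate block, the counts were 6, 3 and 3. The labels number the libraries within each group and name no animal or pair. For libraries with the same number, the correlations of deviations from the group means were -0.0344, -0.0212 and -0.00335, so they were not treated as pairs. The median log2 fold change of the tested genes in Tau against WT was -0.23 with library size alone, against -0.16. Depth limits the secreted MMPs most, since a floor of 3 counts lies at 0.107 to 0.178 CPM.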
